A study of Mus musculus with 12 samples.

Results

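The genes described here are 10 non-collagen genes of leptomeningeal fibroblasts, the connective tissue cells of the thin membranes that cover the brain. They were chosen as a sign of meningeal tissue in the dissections: Slc6a13, Slc6a20a, Slc22a6, Slc13a4, Aldh1a2, Dcn, Lum, Ogn, Fmod and Igf2. They are 10 of the 41388 genes in a table of RNA-sequencing read counts, and all 10 passed the filter on low counts in each comparison. These genes and the lists set beside them were chosen with earlier results of these data known. Their counts and shares beside all genes are therefore descriptions. The table covers 12 libraries of polyA RNA from the hand-dissected medial prefrontal cortex (PFC) of male Swiss Webster mice aged 10 weeks. Conventionally raised mice (CON, 4 libraries) lived in a standard animal unit with a normal gut microbiota. Germ-free mice (GF, 4 libraries) lived in gnotobiotic isolators and had no microbiota at any age. The exGF mice (4 libraries) were germ-free until postnatal day 21, just after weaning, and were then housed beside CON mice, where microbes from the surroundings could colonize them. All groups ate the same autoclaved diet. RNA of 2 to 3 animals was pooled for each library, and errors below are therefore between pools. The exGF libraries carry the column names GFR1 to GFR4, which do not say which exGF sample each is. The study asked what the absence of a microbiota, and its later return, does to transcription in the PFC.

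Leptomeningeal fibroblasts lie in the pia and arachnoid, directly on the cortical surface and along the larger vessels that enter it. They are known for a set of membrane transporters that exchange amino acids, sulfate and organic anions with the cerebrospinal fluid, for making retinoic acid, for secreting small leucine-rich proteoglycans that bind collagen fibrils, and for Igf2. Neurons and glia of the cortex express most of these genes weakly or not at all. In bulk tissue, fewer cells of a type and less RNA per cell cannot be told apart.

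The tissue carried the markers of cortical excitatory neurons in every library. In CON, Slc17a7, which encodes the vesicular glutamate transporter of these cells, stood at 1412 ± 53.3 CPM (counts scaled to a common library total, SD, n = 4). Snap25, a protein of synaptic vesicle fusion, stood at 2757 ± 192 CPM. Libraries held 13280926 (GF replicate 1) to 29134760 (CON replicate 3) counts on genes, and their scaling factors by the trimmed mean of M-values (TMM) ranged from 0.953 to 1.03. GF replicates 1, 3 and 4 (13280926, 18983848 and 18653583 counts) were shallower than every CON and exGF library, the shallowest of which was GFR2 (22702599 counts). The members had 22 (Lum) to 2832 (Igf2) counts in a library. The CPM values below use these totals and factors.

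Compared per kilobase of exon, so that levels of different genes can be set side by side, Igf2 was the most abundant member in every group, at 16.5 FPKM (CPM per kilobase of exon, mean) in CON, 11.9 in GF and 12.7 in exGF. Fmod followed at 11.3, 9.06 and 8.90 FPKM. In CON, Aldh1a2 (7.61 ± 1.47 FPKM, SD, n = 4) and Slc6a13 (7.23 ± 1.22 FPKM) came next and differed by less than their spread. Slc13a4 (5.08 ± 0.847), Slc6a20a (4.49 ± 0.560), Ogn (3.94 ± 0.927) and Slc22a6 (3.42 ± 0.548 FPKM) formed a run in which each neighbour lay within the spread of the next. Dcn (2.41 ± 0.379) and Lum (1.27 ± 0.350 FPKM) were the lowest. In GF the order changed in the upper part of the list: Slc6a13, at 3.75 ± 0.374 FPKM, no longer stood beside Aldh1a2 at 5.72 ± 0.784 FPKM but among Slc6a20a (3.61 ± 0.502), Ogn (3.40 ± 1.68) and Slc13a4 (3.37 ± 0.440 FPKM).

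Slc6a13 was lower in GF than in CON and was the single member to pass the test, while the other 9 had lower fitted levels in GF that missed it. By the quasi-likelihood test of edgeR with Benjamini-Hochberg adjustment over all 15542 genes tested, 1 of 10 members was called lower (adjusted p under 0.1), where 0.135% of all genes tested were called lower. An unadjusted p under 0.05 with a lower level in GF was found for 7 of 10 members (Slc6a13, Slc13a4, Igf2, Lum, Aldh1a2, Slc22a6 and Slc6a20a) and for 3.94% of all genes. Without CON replicate 1, which had the highest level of all 10 members in CON, this held for 4 of 10 members (Slc6a13, Slc13a4, Igf2 and Lum). The fitted log2 fold change was below 0 for 10 of 10 members and for 48.3% of all genes, with a median of -0.38 over the members and 0.01 over all genes. All GF libraries lay below all CON libraries for 3 members (Slc6a13, Slc13a4 and Igf2), where 2.55% of all genes showed this. DESeq2 called Slc13a4 and Igf2 as well as Slc6a13. Of 24399 genes given a p-value by DESeq2, it called 107 lower and 97 higher, and its calls among the lists below stand beside these counts. By limma-voom Slc6a13 alone was called, and 24 of 15542 genes were called lower.

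**Figure D1:**
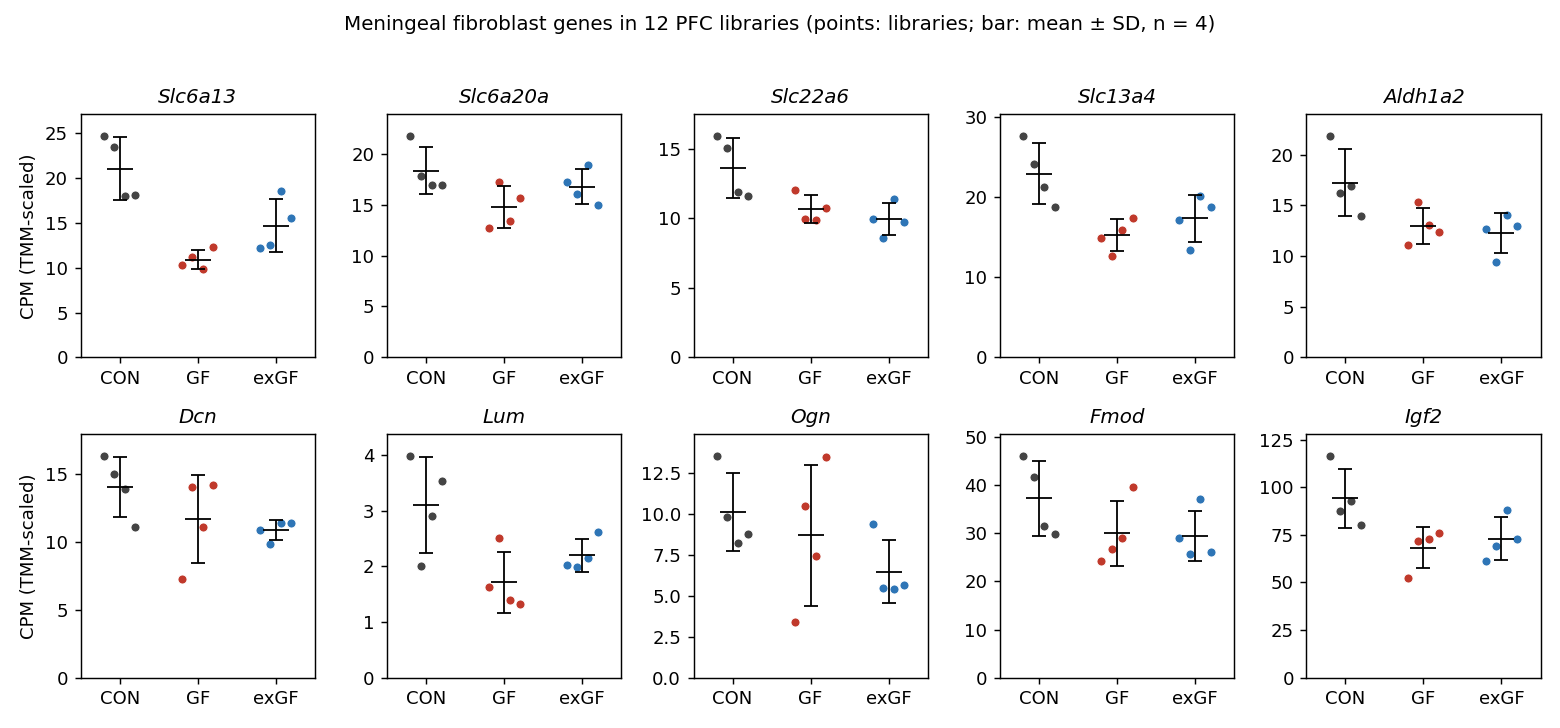
CPM (vertical axes, TMM-scaled, each from 0) of the 10 genes in the 4 CON, 4 GF and 4 exGF libraries; points are libraries and bars are mean ± SD. The GF points lie wholly below the CON points for Slc6a13 (9.83 to 12.3 against 17.9 to 24.6 CPM), Slc13a4 and Igf2, and reach from below the CON range to near its top for Ogn (3.42 to 13.5 CPM).

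Of the 4 transporters, Slc6a13 takes up gamma-aminobutyric acid and taurine and is one of the best known markers of leptomeningeal fibroblasts in the brain. The gene (ENSMUSG00000030108) lies on the plus strand of GRCm38 at chr6:121300227-121337733 and shares no exon bases with another gene. Its level was 24.6, 23.5, 17.9 and 18.0 CPM in CON replicates 1 to 4. It was 10.3, 11.2, 9.83 and 12.3 CPM in GF replicates 1 to 4, and 12.1, 12.5, 18.5 and 15.5 CPM in GFR1 to GFR4. The highest GF library stood below the lowest CON library, and the exGF libraries reached from the top of the GF range into the lower part of the CON range. The GF level was 0.52 of the CON level (log2 fold change -0.94, SE 0.13, adjusted p = 0.0120 by the quasi-likelihood test of edgeR with Benjamini-Hochberg adjustment). It was called under each of 18 other settings, with adjusted p from 3.61e-07 to 0.0538.

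Slc13a4 (ENSMUSG00000029843, chr6:35267957-35308131, minus strand) carries sulfate into cells with sodium. Its level was 27.7, 24.2, 21.3 and 18.7 CPM in CON, 14.9, 12.7, 16.0 and 17.5 CPM in GF, and 17.2, 13.4, 20.2 and 18.8 CPM in GFR1 to GFR4. The groups CON and GF did not overlap, although the lowest CON library and the highest GF library, both replicate 4, stood close to each other. The log2 fold change was -0.59 (SE 0.14, adjusted p = 0.144), which missed the threshold, and Slc13a4 was called under 4 of the 18 other settings.

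Slc22a6 exchanges organic anions, including drugs and metabolites, against dicarboxylates. It stood at 15.9, 15.1, 11.9 and 11.6 CPM in CON, 12.05, 9.94, 9.89 and 10.7 CPM in GF, and 9.99, 8.60, 11.4 and 9.77 CPM in GFR1 to GFR4. Here GF overlapped CON by a single library, GF replicate 1, whereas all exGF libraries lay below all CON libraries. Slc6a20a takes up proline and related imino acids, and 13.8% of its exon bases are shared with the antisense gene Gm17120, which had at most 10 counts in a library. It was at 21.7, 17.8, 16.9 and 16.9 CPM in CON, 12.7, 17.2, 13.4 and 15.6 CPM in GF, and 17.2, 16.0, 18.9 and 15.0 CPM in GFR1 to GFR4. GF replicate 2 and 2 of the exGF libraries lay within its CON range. The log2 fold changes of GF against CON were -0.36 (SE 0.14, adjusted p = 0.448) for Slc22a6 and -0.31 (SE 0.13, adjusted p = 0.503) for Slc6a20a by the quasi-likelihood test of edgeR with Benjamini-Hochberg adjustment.

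**Figure D2:**
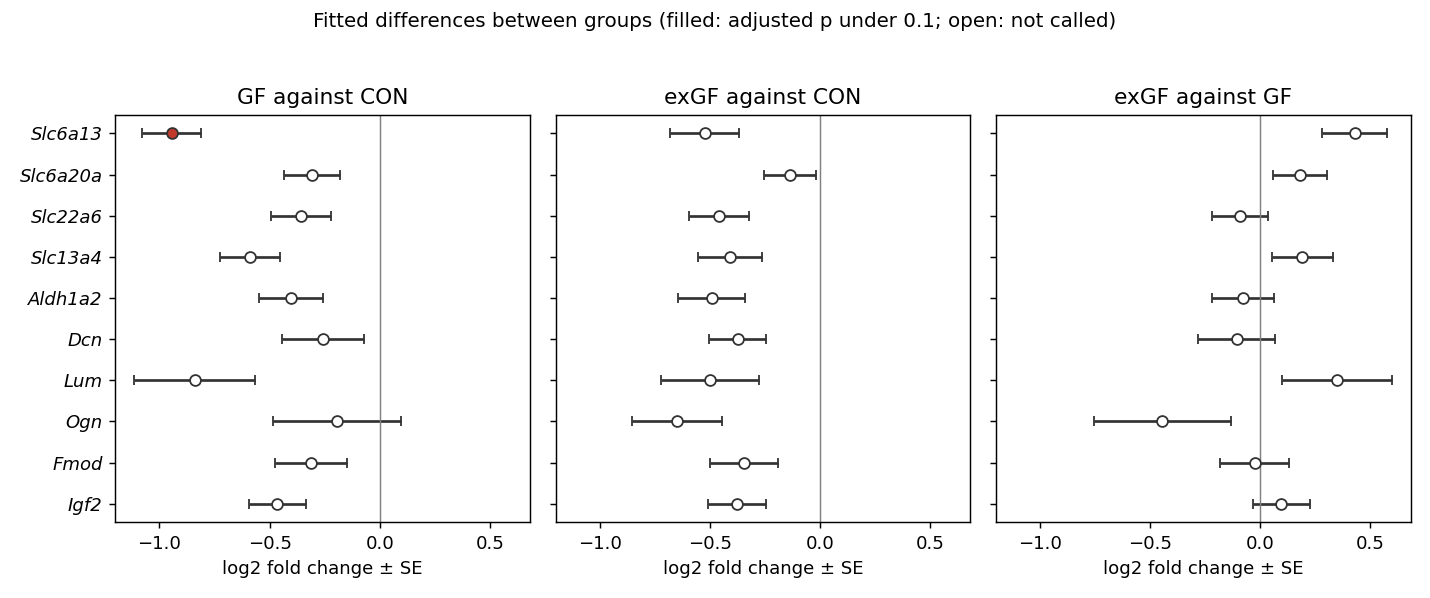
Fitted log2 fold change ± SE (horizontal axis) of each gene in GF against CON, exGF against CON and exGF against GF; the filled point is the member called at an adjusted p under 0.1. In both comparisons with CON every point lies left of 0, with Slc6a13 at -0.94 and Lum at -0.84 the lowest in GF, and in exGF against GF the points lie on both sides of 0.

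The nearest coding neighbours of 3 of the transporters are relatives of them. Slc6a12, a betaine and gamma-aminobutyric acid transporter whose gene lies 5.3 kb from Slc6a13 on chromosome 6, was at 3.54 ± 0.695 CPM in CON, 1.61 ± 0.572 CPM in GF and 2.49 ± 0.362 CPM in exGF (SD, n = 4), with a log2 fold change of -1.10 in GF (SE 0.26, adjusted p = 0.159). Slc22a8, an organic anion transporter 6.2 kb from Slc22a6 on chromosome 19, was at 32.1 ± 5.98 CPM in CON and 27.8 ± 1.14 in GF, with a log2 fold change of -0.21 (SE 0.12, adjusted p = 0.653). Slc6a20b, 2.2 kb from Slc6a20a, had at most 3 counts in every library. These 3 genes were named for their position after their values had been seen. Over a list of 15 relatives of the transporters, 10 could be tested in GF against CON. None was called by edgeR or limma-voom and 1, Slc6a12, by DESeq2, while 3 had an unadjusted p under 0.05 and a lower level, and the median log2 fold change was -0.15. Their range ran from Slc22a2, an organic cation transporter (-1.10, SE 0.39), to Slc13a5, a citrate transporter (0.17, SE 0.11). Slc22a2 had only 5 to 11 counts in a GF library.

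Since several members moved together over the libraries, their promoters were read for shared letters. Windows from 250 bases before to 50 bases after a transcription start were taken from RefSeq (GRCm38.p6), which gave 13 windows for 8 members, with 3 starts for Slc6a13 and 4 for Igf2; Dcn and Lum had none in the table. The letters GGAATG, which TEAD factors recognise, or their reverse complement CATTCC, stood in 7 of the 13 windows, those of Slc6a13, Slc22a6, Slc13a4, Ogn and 3 of the 4 starts of Igf2. Of all 32851 windows of this length in the table, 14.7% hold them. The 4 windows below are those at the start nearest to the annotated gene start, and capitals mark these letters.
Slc6a13 (chr6:121300038-121300337, plus strand): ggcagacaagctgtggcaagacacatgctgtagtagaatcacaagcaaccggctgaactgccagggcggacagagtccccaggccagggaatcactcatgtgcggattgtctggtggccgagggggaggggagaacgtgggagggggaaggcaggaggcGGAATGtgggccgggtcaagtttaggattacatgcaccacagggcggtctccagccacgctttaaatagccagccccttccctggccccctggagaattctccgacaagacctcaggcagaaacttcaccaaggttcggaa
Slc22a6 (chr19:8617746-8618045, plus strand): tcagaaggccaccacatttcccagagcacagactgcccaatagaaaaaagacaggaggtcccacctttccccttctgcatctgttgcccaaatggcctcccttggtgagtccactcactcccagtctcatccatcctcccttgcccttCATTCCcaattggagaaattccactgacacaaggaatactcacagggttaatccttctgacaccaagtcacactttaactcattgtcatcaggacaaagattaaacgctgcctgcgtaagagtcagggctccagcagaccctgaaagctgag
Slc13a4 (chr6:35308077-35308376, minus strand): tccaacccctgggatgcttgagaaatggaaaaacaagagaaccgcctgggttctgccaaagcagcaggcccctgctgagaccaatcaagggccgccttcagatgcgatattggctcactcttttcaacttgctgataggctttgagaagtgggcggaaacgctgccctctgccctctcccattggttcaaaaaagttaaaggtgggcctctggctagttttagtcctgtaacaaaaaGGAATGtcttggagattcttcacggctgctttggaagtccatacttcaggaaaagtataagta
Ogn (chr13:49607765-49608064, plus strand): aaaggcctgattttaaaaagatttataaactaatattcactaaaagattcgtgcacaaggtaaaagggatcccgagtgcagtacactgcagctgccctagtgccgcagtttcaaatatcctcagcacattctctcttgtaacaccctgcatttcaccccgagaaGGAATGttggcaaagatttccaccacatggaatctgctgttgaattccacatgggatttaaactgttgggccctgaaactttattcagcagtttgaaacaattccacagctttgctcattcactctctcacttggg
The match began 91 bases before the start in Slc6a13, 102 in Slc22a6, 13 in Slc13a4 and 86 in Ogn, and 1 of the 8 matches in all windows overlapped a match of another motif searched. On either strand CCAAT was found in windows of 6 of 8 members (37.4% of all windows), GGGCGG in 4 (35.7%), TATAAA in 1 (13.6%) and AGGTCA in 2 (16.3%), while TGANTCA (7.81% of all windows) and GTAAACA (3.65%) were in none. The motifs were chosen after the sequences had been seen, so the shares of all windows are no test of an excess in the members. The start of Igf2 nearest to its annotated gene start held no GGAATG or CATTCC. A match is a description of the letters, members with several starts had more windows to hold one, and the counts do not show which start was used. Regulation of the members by a shared factor was not tested.

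Aldh1a2, the retinaldehyde dehydrogenase that makes retinoic acid in the meninges, was at 21.8, 16.2, 16.9 and 13.9 CPM in CON, 11.1, 15.3, 13.1 and 12.3 CPM in GF, and 12.7, 9.46, 14.1 and 12.9 CPM in GFR1 to GFR4. The lowest CON library overlapped the top of both other groups. The log2 fold change was -0.40 in GF (SE 0.15, adjusted p = 0.421) and -0.49 in exGF (SE 0.15, adjusted p = 0.649) against CON. Of 19 other genes of the retinoid pathway 17 could be tested in GF against CON. None was called by edgeR or limma-voom and 2 were called lower by DESeq2, while 2 had an unadjusted p under 0.05 and a lower level and 3 a higher one. Their median log2 fold change was -0.08, between Rxrg, a retinoid X receptor (-1.08, SE 0.31), and Rara, a retinoic acid receptor (0.45, SE 0.13). Their summed level overlapped between the groups, at 217 to 266 CPM in CON, 234 to 253 CPM in GF and 233 to 263 CPM in exGF.

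The 4 small leucine-rich proteoglycans are matrix proteins that bind collagen and set fibril width. Dcn (decorin) was at 16.3, 15.0, 13.9 and 11.1 CPM in CON, 7.29, 14.1, 11.1 and 14.2 CPM in GF, and 10.9, 9.85, 11.4 and 11.4 CPM in GFR1 to GFR4. Ogn (osteoglycin) was at 13.5, 9.85, 8.25 and 8.80 CPM in CON, 3.42, 10.5, 7.47 and 13.5 CPM in GF, and 9.41, 5.49, 5.41 and 5.65 CPM in GFR1 to GFR4. Both genes were lowest in GF replicate 1, the shallowest library, and lay inside their CON range in GF replicates 2 and 4, as Dcn just did in GF replicate 3. Their log2 fold changes in GF were -0.26 (SE 0.19, adjusted p = 0.740) and -0.19 (SE 0.29, adjusted p = 0.891), and without GF replicate 1 they were -0.11 and 0.04. Leaving out CON replicate 1 gave -0.02 for Ogn, and leaving out GF replicate 4 gave -0.47. In exGF 3 of 4 libraries held Ogn below its whole CON range.

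Fmod (fibromodulin) was at 45.9, 41.6, 31.6 and 29.8 CPM in CON, 24.2, 26.8, 29.1 and 39.7 CPM in GF, and 28.9, 25.7, 37.0 and 26.1 CPM in GFR1 to GFR4. A single library of GF, replicate 4, and a single library of exGF, GFR3, stood inside the CON range. Lum (lumican) was the least abundant member, at 3.98, 2.01, 2.90 and 3.54 CPM in CON, 1.64, 2.51, 1.40 and 1.32 CPM in GF, and 2.03, 1.99, 2.16 and 2.62 CPM in GFR1 to GFR4. Its log2 fold change in GF, -0.84, came close to that of Slc6a13 but with an SE of 0.27 on 22 to 56 counts in a GF library, and its adjusted p was 0.358. That of Fmod was -0.31 (SE 0.16, adjusted p = 0.619). Leaving out CON replicate 1 gave -0.19 for Fmod, and leaving out GF replicate 4 gave -0.48. Lum and Dcn lie 47.0 kb apart on chromosome 10.

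Of 12 other proteoglycans of the family, 9 were tested in GF against CON. None was called by edgeR, DESeq2 or limma-voom, 2 had an unadjusted p under 0.05 and a lower level, and the median log2 fold change was 0.03. The range ran from Podn (-0.47, SE 0.18) to Epyc (0.71, SE 0.36). Kera, the gene nearest to Lum, had 0 counts in every library. The 12 collagens of a separate list, fibrillar and others, had a median of -0.50. Of these, 11 of 12 were lower in GF, 8 had an unadjusted p under 0.05 and a lower level, and Col1a2, a chain of type I collagen, was called lower by all 3 tools (32.9 ± 3.36 CPM in CON against 20.4 ± 1.81 CPM in GF, SD, n = 4, log2 fold change -0.69, SE 0.11, adjusted p = 0.0168 by the quasi-likelihood test of edgeR with Benjamini-Hochberg adjustment). Their summed level was 181 to 255 CPM in CON, 134 to 167 CPM in GF and 128 to 214 CPM in exGF, without overlap between CON and GF. At the other end Col15a1 had a log2 fold change of 0.09 (SE 0.21).

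Igf2, an imprinted growth factor that in the adult brain is made mainly by meningeal fibroblasts and the choroid plexus, lies at chr7:142650766-142666816 on the minus strand (ENSMUSG00000048583). It was at 116, 87.5, 92.9 and 80.3 CPM in CON, 52.4, 71.7, 72.6 and 76.1 CPM in GF, and 61.3, 69.3, 88.2 and 72.7 CPM in GFR1 to GFR4. All GF libraries were below all CON libraries, and GFR3 alone of the exGF libraries lay inside the CON range. The log2 fold change in GF was -0.46 (SE 0.13, adjusted p = 0.250). A later annotation holds the read-through gene Gm49394 on the same strand, which shares 62.8% of the exon bases of Igf2. Gm49394 was not among the counted genes, so its reads could not be separated from those of Igf2. Pairs were counted without regard to strand, and the antisense gene Igf2os had at most 13 counts in a library. Of 16 other genes of the insulin-like growth factor axis 13 were tested in GF against CON. None was called by edgeR or limma-voom and 1 by DESeq2, 1 had an unadjusted p under 0.05 and a lower level, and the median log2 fold change was -0.01. Both times the gene was H19, the maternally expressed imprinted neighbour of Igf2, at 1.08 ± 0.325 CPM in CON, 0.371 ± 0.108 CPM in GF and 0.579 ± 0.242 CPM in exGF (log2 fold change in GF -1.56, SE 0.37, adjusted p = 0.157). H19 had only 22 to 37 counts in a CON library and 5 to 7 in a GF library. At the upper end stood the ligand Igf1 (0.23, SE 0.21).

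In exGF mice the fitted levels of all 10 members were below those in CON, and none passed the adjusted threshold. By the quasi-likelihood test of edgeR with Benjamini-Hochberg adjustment, 0 of 10 members were called, where 0.0443% of 15813 genes were called lower. DESeq2 and limma-voom called 0 as well. At an unadjusted p under 0.05, 9 of 10 members were lower in exGF, against 2.87% of all genes, and Slc6a20a was the exception. Without CON replicate 1 this held for 4 of 10 members (Aldh1a2, Ogn, Slc22a6 and Slc6a13). The log2 fold change was below 0 for 10 of 10 members and for 52.1% of all genes, with a median of -0.43 over the members and -0.01 over all genes. The values ran from Ogn at -0.65 (SE 0.20, unadjusted p = 0.00690, adjusted p = 0.650) to Slc6a20a at -0.14 (SE 0.12, unadjusted p = 0.264, adjusted p = 0.968), and the latter was -0.03 without CON replicate 1 and -0.07 without GFR4. Slc6a13 stood at -0.52 (SE 0.16, adjusted p = 0.610) and Slc22a6 at -0.46 (SE 0.14, adjusted p = 0.610). All exGF libraries lay below all CON libraries for Slc22a6 alone, 1 of 10 members, where 1.52% of all genes showed this. The comparisons of GF and of exGF with CON share the 4 CON libraries, so a high CON library lowers both.

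Set directly against each other, exGF and GF gave no called member. By the quasi-likelihood test of edgeR with Benjamini-Hochberg adjustment 0 of 10 members were called, as were 0% of 15569 genes, and DESeq2 and limma-voom also called 0 members. The log2 fold change of exGF against GF was below 0 for 5 of 10 members and for 51.3% of all genes, with a median of 0.03 over the members. A single member, Slc6a13, had an unadjusted p under 0.05 and was higher in exGF (0.43, SE 0.15, unadjusted p = 0.0114, adjusted p = 0.736), where 3.30% of all genes had such a p and were higher. The others lay between -0.44 (Ogn, SE 0.31) and 0.35 (Lum, SE 0.25). That of Ogn was -0.16 without GF replicate 4 and -0.69 without GF replicate 1, and that of Lum was 0.61 without GF replicate 2. No member had groups that did not overlap. Of the 15569 genes tested, 242 had all exGF libraries below all GF libraries and 275 had all of them above.

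**Figure D3:**
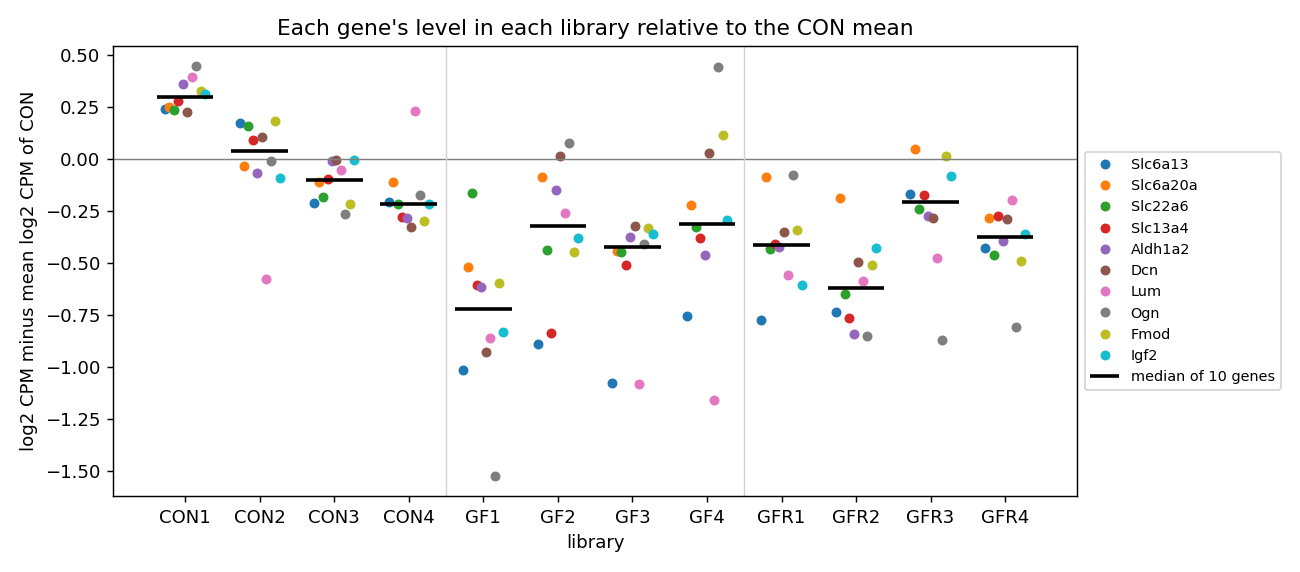
Log2 CPM of each of the 10 genes in each library, minus the gene's mean log2 CPM over the CON libraries (vertical axis); the horizontal axis gives the 12 libraries, points are genes and black lines the median of the 10. The lines fall from 0.30 in CON1 to -0.22 in CON4, lie between -0.72 and -0.31 in GF and between -0.62 and -0.21 in exGF.

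The members varied together from library to library, also within groups. Relative to the mean of CON, the median log2 level of the 10 members was 0.30, 0.04, -0.10 and -0.22 in CON replicates 1 to 4, -0.72, -0.32, -0.42 and -0.31 in GF replicates 1 to 4, and -0.41, -0.62, -0.21 and -0.38 in GFR1 to GFR4. CON replicate 1 had all 10 members above their CON mean and CON replicate 3 all 10 below it. The highest exGF median, that of GFR3, was above the lowest CON median, that of CON replicate 4, so the spread of this median inside CON was of the same size as the distance between some libraries of different groups. After each gene's group means were removed, the 45 pairs of members had a median Pearson r of 0.54 over the 12 libraries, from -0.28 (Lum with Fmod) to 0.85 (Dcn with Ogn), and 41 of the pairs were positive. Lum followed the others least, with a median r of 0.07 to the other members, and Igf2 most, at 0.69. These values are descriptions over points that share libraries and their depth, and pairs of other genes were not measured for comparison.

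Slc6a13 was set against other members within each library, which removes what moves all members alike. The ratio of its FPKM to that of Slc6a20a was 1.60, 1.85, 1.49 and 1.50 in CON, 1.13, 0.916, 1.03 and 1.10 in GF, and 0.993, 1.10, 1.38 and 1.45 in GFR1 to GFR4. All GF and all exGF libraries lay below all CON libraries in this ratio, and GFR3 and GFR4 lay above all GF libraries. The ratio to Aldh1a2 was 0.827 to 1.13 in CON, 0.570 to 0.776 in GF and 0.746 to 1.03 in exGF, so that GF lay below CON without overlap and exGF overlapped both. The ratio to Dcn was 2.60 to 3.27 in CON, 1.60 to 2.83 in GF and 2.24 to 3.26 in exGF, with GF replicate 1 inside the CON range. The ratios were chosen after the levels had been seen and were not tested.

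**Figure D4:**
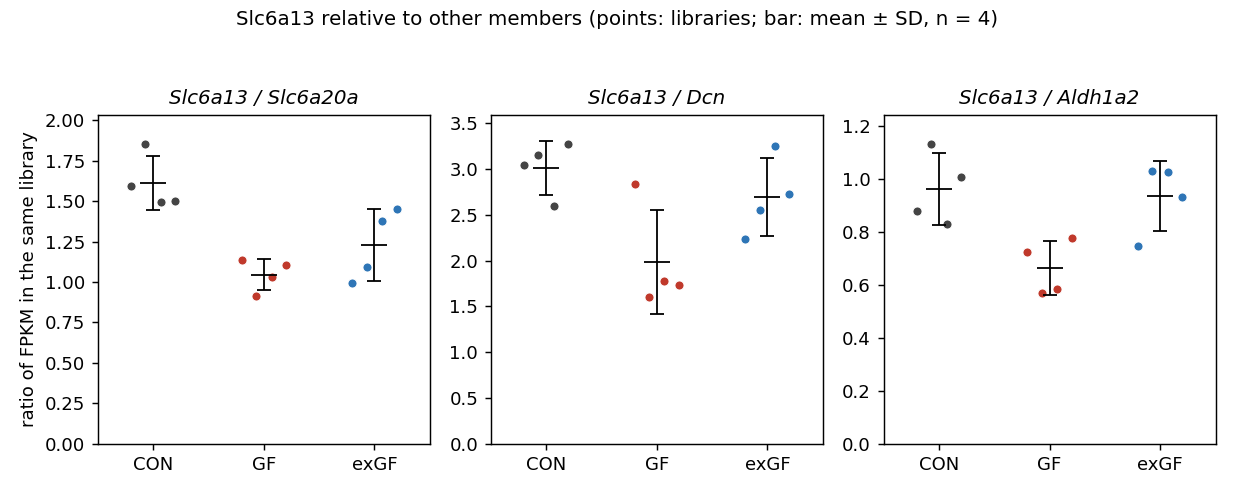
Ratio of the FPKM of Slc6a13 to that of Slc6a20a, Dcn and Aldh1a2 in the same library (vertical axes, from 0); points are libraries and bars are mean ± SD (n = 4). In the ratio to Slc6a20a the CON libraries (1.49 to 1.85) stand above all GF (0.916 to 1.13) and exGF (0.993 to 1.45) libraries.

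Of 30 further genes of the meninges, collagens left out, 29 were tested in GF against CON. This list too was written with earlier results of these data known, so it is no independent check of the members. None was called by edgeR or limma-voom, and 7 were called lower by DESeq2, which called 107 of 24399 genes lower. An unadjusted p under 0.05 with a lower level was found for 14, against 3.94% of all genes. A log2 fold change below 0 was found for 26, against 48.3% of all genes, with a median of -0.45. Ngfr, the low-affinity neurotrophin receptor, stood at the upper end (0.23, SE 0.33). Their summed level was 321 to 374 CPM in CON, 239 to 289 CPM in GF and 253 to 315 CPM in exGF, and neither GF nor exGF overlapped CON. In exGF against CON 9 of the 29 tested had an unadjusted p under 0.05 and a lower level, against 2.87% of all genes. There, 0 were called by edgeR or limma-voom and 2 by DESeq2, which called 38 of 25050 genes lower. The median was -0.40. The summed level of the 10 members was 213 to 308 CPM in CON, 150 to 213 CPM in GF and 172 to 227 CPM in exGF, and the highest GF library, replicate 4, exceeded the lowest CON library by less than 1 CPM.

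Markers of other cell types that lie at the brain's surface or vessels differed between groups to different degrees, and their part in the result was not tested. Border macrophages, which live among the leptomeningeal fibroblasts, had a summed level over 8 markers of 31.9 to 36.1 CPM in CON, 24.0 to 25.7 CPM in GF and 24.5 to 34.7 CPM in exGF, so that GF lay below CON without overlap. Of these 7 of 8 had a lower fitted level in GF, 2 with an unadjusted p under 0.05 and 0 called by edgeR (1, Stab1, by DESeq2), with a median log2 fold change of -0.49, from Pf4 (-1.04, SE 0.49) to Ms4a7 (0.04, SE 0.38). Pf4 had only 3 to 10 counts in a GF library. Most of the fall in the mean sum of the 8 markers came from Stab1 (16.5 CPM in CON and 11.7 CPM in GF) and Mrc1 (8.29 and 5.89 CPM). Stab1 overlapped between CON and GF, and Mrc1 did not. The 12 endothelial markers summed to 439 to 504 CPM in CON, 480 to 526 CPM in GF and 485 to 540 CPM in exGF, with a median of 0.02 in GF against CON, from Cldn5 (-0.30, SE 0.14) to Slco1a4 (0.33, SE 0.13). The 12 mural markers summed to 271 to 328 CPM, 280 to 301 CPM and 279 to 322 CPM in the 3 groups, with a median of -0.14, from Cnn1 (-0.35, SE 0.47) to Rgs5 (0.17, SE 0.08). In both vascular lists the sums of CON and GF overlapped.

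Choroid plexus epithelium, the other main source of several of these transcripts, was low in these libraries. Of its 14 markers 12 had a mean under 1 CPM. The 14 summed to 7.96 to 9.13 CPM in CON, 4.41 to 17.3 CPM in GF and 4.97 to 9.40 CPM in exGF. The 17.3 CPM came from GF replicate 1 alone. GF replicates 2 to 4, at 5.86, 4.41 and 5.45 CPM, lay below all CON libraries. The defining product of the choroid plexus, Ttr (transthyretin), was at 0.409 to 1.81 CPM in CON, 0.376 to 9.30 CPM in GF and 0.124 to 2.58 CPM in exGF. Its log2 fold change in GF (1.16, SE 0.84) rested on 1 high library, with a GF mean of 2.68 ± 4.41 CPM (SD, n = 4). Kl, at 3.77 ± 0.354 CPM in CON and 2.27 ± 0.628 in GF, had a log2 fold change of -0.75 (SE 0.21, adjusted p = 0.256 by edgeR). For Kl all GF and all exGF libraries lay below all CON libraries. DESeq2 called Kl lower in GF, while edgeR and limma-voom called no gene of the list. Kcnj13 was at 0.994 ± 0.176 CPM in CON. Of 8 ependymal markers 6 had a mean under 1 CPM, and those tested ran from Dynlrb2 (0.01, SE 0.40) to Foxj1 (0.23, SE 0.22). The haemoglobin and other red cell genes summed to 116 to 194 CPM in CON, 138 to 161 CPM in GF and 74.5 to 155 CPM in exGF, from Hbb-bs (-0.20, SE 0.12) to Hbb-bt (0.57, SE 0.22) in GF against CON. The 12 markers of cortical excitatory neurons summed to 8650 to 9637 CPM in CON and 10016 to 10729 CPM in GF, without overlap. In exGF they summed to 8924 to 10011 CPM. Their log2 fold changes in GF ran from Fezf2 (-0.16, SE 0.10) to Snap25 (0.35, SE 0.09), and 10 of 12 were above 0. Most of the rise in the mean sum came from Snap25, at 2757 CPM in CON and 3509 CPM in GF. The other abundant markers, Camk2a (4136 and 4214 CPM) and Slc17a7 (1412 and 1502 CPM), overlapped between CON and GF. None was called by edgeR or limma-voom and 2, Nrn1 and Snap25, were called higher by DESeq2.

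**Figure D5:**
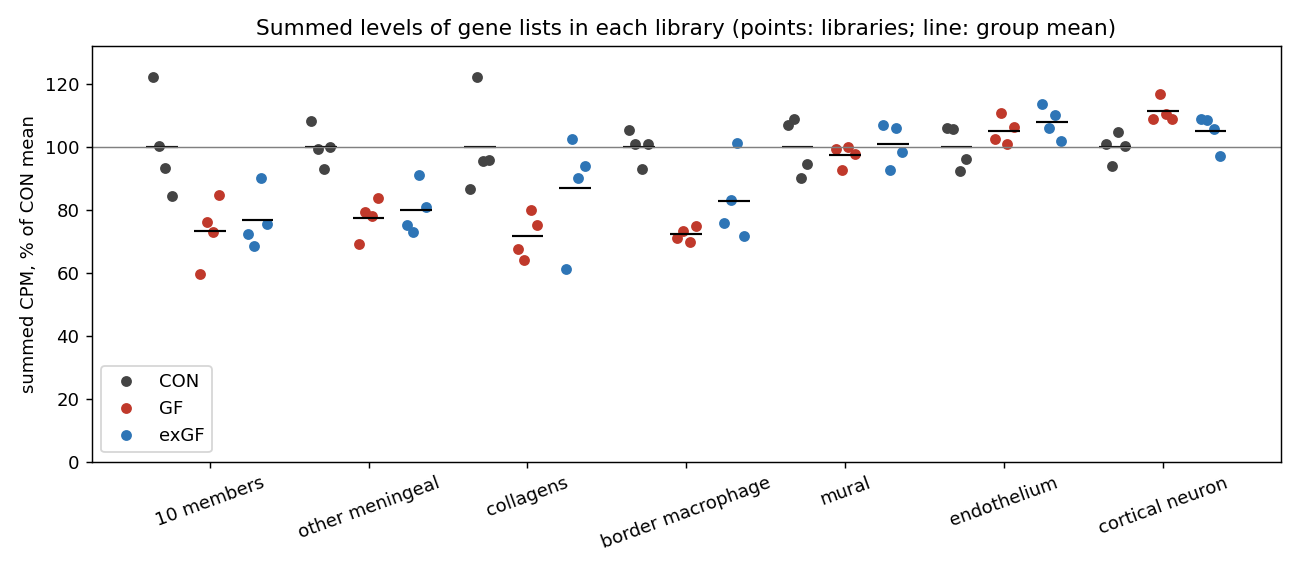
Summed CPM of 7 gene lists in each library as a percent of the list's CON mean (vertical axis, from 0); points are libraries, coloured by group, and lines are group means. GF points lie at 59.6% to 84.6% for the 10 members, 69.1% to 83.6% for other meningeal genes and 69.8% to 74.8% for border macrophage markers, while mural markers lie at 92.7% to 99.9% and cortical neuron markers at 109% to 117%. Most of the rise in the mean neuron sum came from Snap25, and most of the fall in the mean border macrophage sum from Stab1 and Mrc1.

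Over the 12 libraries, the genes whose log2 CPM went most closely with the mean scaled level of the members were Ptgdr (Pearson r 0.91), Tmem159 (0.90), Fbln5 (0.90), Gm43302 (0.90), Slc12a7 (0.89), Vstm4 (0.89), Colec12 (0.89), Serping1 (0.89), Crabp2 (0.88) and Fbln1 (0.87), out of 16022 genes compared. These are descriptions over libraries that also differ in group and depth. All 10 stayed among the top 10 with a larger prior count, and 4 did so by Spearman's rank correlation. Fbln5, Crabp2 and Fbln1 are in the list of other meningeal genes, which had a median r of 0.65 over its 29 genes, against 0.01 over all genes. That list was written with earlier results of these data known. Fbln1, a matrix protein, was at 13.7 ± 1.50 CPM in CON, 9.67 ± 0.911 CPM in GF and 10.7 ± 1.22 CPM in exGF (SD, n = 4). The median r was 0.51 for the collagens, 0.42 for border macrophage markers, 0.04 for the choroid plexus list, -0.06 for endothelium and -0.23 for cortical neuron markers. Among the members themselves Igf2 (0.92) and Aldh1a2 (0.90) followed this mean most closely and Lum (0.64) least, although each member is part of it.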

How the data were processed

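The deposited table holds raw counts per gene and library, not normalized by the authors. Per the labels and the study's methods, the authors trimmed paired reads (Trimmomatic 0.32), aligned them to GRCm38.p3 with STAR and counted pairs with HTSeq 0.6.0 on Ensembl genes without regard to strand, from a stranded library. The notes and the methods name different versions of STAR. Pairs outside genes (4.57% to 7.31%), on several genes (1.10% to 1.32%) or at several places (13.0% to 19.2%) were left out. Names, lengths and coordinates came from a later annotation (GENCODE, GRCm38), which named 40340 of 41388 genes.

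Each pair of groups was tested on the counts with edgeR 4.0.16 in R 4.3.3 (filterByExpr, TMM, quasi-likelihood, Benjamini-Hochberg over all genes kept, called at an adjusted p under 0.1). Alternatives were RLE and upper-quartile scaling, no filter, at least 10 counts in every library, DESeq2 1.42.0 with and without a prior, limma-voom (3.58.1), robust fits, 1 fit of 12 libraries, a block for the replicate number, calls at 0.05 and leaving out each library. Log2 CPM used a prior count of 1 (or 5). Replicates are pools of animals, so p-values measure the spread between pools. The steps were tested on simulated data.

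The members and the lists were chosen with earlier results of these data known. Genes named beside the members are list genes called in any comparison, each list's highest and lowest log2 fold change in GF against CON, the 3 choroid plexus genes highest in CPM and the 10 genes most like the members. Neighbours of members and abundant genes that carried much of a list's sum are named too. Results of 2 list genes are not reported here. The motifs were chosen after the sequences had been seen.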

Additional observations from a re-analysis of the deposited data

Results flagged for a closer look

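Among 30 sets of 4 libraries (10 members in 3 groups), 1 held a library far from the rest, and about 1 in 20 such sets is expected by chance. It was Ogn in exGF, where GFR1 had 9.41 CPM and the other 3 libraries lay between 5.41 and 5.65 CPM.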

How the results depend on the processing

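In GF against CON the count of called members was 1 (Slc6a13) as reported and 3 (Slc6a13, Slc13a4 and Igf2) with no filter on low counts, with DESeq2 and with DESeq2 with a prior on fold changes. Leaving out 1 library at a time gave 1 to 2, and the second was Slc13a4 without CON replicate 4. These filters and tools also moved the count over all genes, from 39 called to 221 with no filter and 204 with DESeq2 (exGF against CON, 11 to 48 and 60). The cause was not tested. In exGF against CON and exGF against GF the count of members was 0 under every alternative run. With the replicate number as a replicate block, GF against CON still gave 1 called member, and 51 genes against 39. No sign of pairing by number was seen: deviations of same-numbered CON and GF libraries correlated at -0.05 to 0.03. Those of libraries with unlike numbers correlated at -0.08 to 0.10. So few pairs cannot show that no pairing existed. The exGF columns carry no matching number, so their comparisons had no block. Log2 fold changes kept their sign in 179 of 180 member-by-setting cases in GF against CON, 170 of 170 in exGF against CON and 163 of 170 in exGF against GF. The exceptions, with 1 library left out, were Ogn in GF against CON (from -0.47 up to 0.043, without GF replicate 1) and, in exGF against GF, Aldh1a2 (from -0.15 up to 0.025), Fmod (from -0.16 up to 0.14) and Igf2 (from -0.010 up to 0.17). With plain totals in place of TMM the ratio of mean CPM moved by at most 0.05 (log2), and Fmod in exGF against GF went from -0.03 to 0.02. Lum, with 22 to 97 counts in CON and GF libraries, is the member most limited by depth.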
